A study of Mus musculus with 16 samples.

Results

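The 39 Hox genes of the mouse, that is every gene of the deposited RNA table whose symbol is Hoxa, Hoxb, Hoxc or Hoxd followed by a number, were followed through oocyte growth in transcription and in DNA methylation. They were 39 of the 25965 genes of the table and were taken by symbol, by a rule that uses no measured value. Oocytes of wild-type C57BL/6 mice (C57BL/6Babr in the methods) were picked by hand with a pipette from digested ovaries, washed and sorted by diameter, so each library is a pool of oocytes and any somatic cell carried along is in it too. RNA-seq covered oocytes of 10–30 μm (taken at postnatal days 5 to 7), 40–45 μm (days 7 to 12), 50–55 μm (days 9 to 14) and 60–65 μm (days 13 to 16), with 2 libraries (A and B) a class, and 1 column of fully grown germinal vesicle (GV) oocytes from day 20. Reduced representation bisulphite sequencing (RRBS), which reads CpGs near MspI cut sites and so favours CpG-rich DNA, was done in duplicate for the 3 larger classes of growing oocytes. Post-bisulphite adaptor tagging (PBAT), which samples the whole genome, gave 1 library at 60–65 μm. Size and age rise together in this design and cannot be told apart.

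Hox genes encode homeodomain transcription factors that give cells their position along the body axis of the embryo. In mammals they lie in 4 compact clusters, in which the order of the genes on the chromosome mirrors the order in which the embryo uses them, from the head (low numbers) to the tail and limb ends (high numbers). In cells that do not use them the clusters are typically held silent by Polycomb complexes, and their CpG-rich DNA is mostly unmethylated, whereas in growing oocytes new DNA methylation is laid down mainly across transcribed genes.

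On GRCm38 the Hoxa cluster held 11 genes, all on the minus strand, at chr6:52155367-52260880. The Hoxb cluster held 10 genes at chr11:96194316-96368256, the Hoxc cluster 9 genes at chr15:102921103-103036843 and the Hoxd cluster 9 genes at chr2:74668310-74765143, all of these on the plus strand. The clusters measured 105.514, 173.941, 115.741 and 96.834 kb and carried 29.8, 20.9, 21.5 and 28.0 CpGs per kb, against 8.34 across the genome and 8.58 to 13.9 in the 200 kb on each side of them. Their DNA was therefore far denser in CpGs than its surroundings, while the GC content of the 4 clusters was alike at 48.9 to 50.0%. Over the gene bodies, from start to end as listed, the Hox median was 33.2 CpGs per kb, the lowest value was 15.4 (Hoxc4), and 25 of 39 (64.1%) had at least 30. Among all genes of the table the median was 12.1, and 7.42% had at least 30. Within 1000 bases of the listed start the Hox median was 39.5 CpGs per kb, with 30 of 39 (76.9%) at 30 or more, against 27.0 and 46.5% for all genes. Repeats took less of the Hox bodies (median 13.7%) than of all bodies (21.1%).

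The spread of sequence inside the clusters is shown by the 250 bases upstream of the main transcript start (GENCODE) of 4 genes and by a stretch within Hoxa7 as the table lists it (the Hox gene with the most RNA), which is intronic in a longer transcript and lies upstream of the main one. All are from GRCm38, written 5′ to 3′ on the strand of the gene, with every CpG in capitals. Hoxa4 (chr6:52191754-52192003, minus strand, 41 CpGs) had the most CpGs of the 39 such windows, Hoxa5 (chr6:52204588-52204837, minus, 28 CpGs) and Hoxd11 (chr2:74682073-74682322, plus, 20 CpGs, inside the gene as the table lists it) lay between, and Hoxd4 (chr2:74721728-74721977, plus, 3 CpGs) was among the poorest. The intronic stretch of Hoxa7 lay at chr6:52221294-52221543 (minus, 15 CpGs).
Hoxa4 upstream: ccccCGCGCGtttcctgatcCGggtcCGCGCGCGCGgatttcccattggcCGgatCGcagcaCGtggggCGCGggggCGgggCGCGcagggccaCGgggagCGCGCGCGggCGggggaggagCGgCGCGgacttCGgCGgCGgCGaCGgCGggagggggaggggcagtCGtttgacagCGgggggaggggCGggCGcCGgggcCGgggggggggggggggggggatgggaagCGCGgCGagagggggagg
Hoxa5 upstream: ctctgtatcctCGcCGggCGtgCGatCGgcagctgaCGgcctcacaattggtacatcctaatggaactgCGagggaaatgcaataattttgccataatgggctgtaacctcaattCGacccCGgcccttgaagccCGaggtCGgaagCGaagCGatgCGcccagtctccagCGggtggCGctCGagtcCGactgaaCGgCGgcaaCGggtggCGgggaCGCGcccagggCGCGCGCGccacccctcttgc
Hoxd11 upstream: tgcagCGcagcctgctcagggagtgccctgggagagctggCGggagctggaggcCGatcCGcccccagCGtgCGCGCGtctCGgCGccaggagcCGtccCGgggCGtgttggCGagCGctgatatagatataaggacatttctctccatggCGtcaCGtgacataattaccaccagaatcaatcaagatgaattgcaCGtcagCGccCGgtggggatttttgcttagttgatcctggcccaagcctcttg
Hoxd4 upstream: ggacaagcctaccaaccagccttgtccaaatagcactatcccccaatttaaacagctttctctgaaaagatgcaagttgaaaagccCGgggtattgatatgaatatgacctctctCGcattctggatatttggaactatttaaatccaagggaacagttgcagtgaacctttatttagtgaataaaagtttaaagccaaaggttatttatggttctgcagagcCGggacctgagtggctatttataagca
Hoxa7 intron: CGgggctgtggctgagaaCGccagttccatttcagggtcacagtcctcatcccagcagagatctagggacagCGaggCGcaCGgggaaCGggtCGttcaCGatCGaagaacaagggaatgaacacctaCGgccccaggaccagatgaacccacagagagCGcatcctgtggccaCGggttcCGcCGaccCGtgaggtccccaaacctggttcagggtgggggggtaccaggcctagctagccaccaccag

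Methylation over these stretches was read at CpG cytosines with at least 5 reads, each strand counted on its own, and a stretch was given the mean over its cytosines. In the PBAT library of 60–65 μm oocytes the Hoxa4 stretch stood at 0.794% (1 methylated of 160 calls over 21 cytosines) and the Hoxa5 stretch at 1.87% (4 of 242 calls over 38). The Hoxd11 stretch stood at 1.22% (5 of 295 calls over 35) and the Hoxa7 intron at 4.85% (8 of 189 calls over 25). All of these were near 0. RRBS at 60–65 μm found 3 methylated of 576 calls in library A and 4 of 496 in library B upstream of Hoxa4. Upstream of Hoxa5 it found 4 of 147 and 7 of 247, and the Hoxd4 stretch had no cytosine with 5 reads in any library. CpGs in the 39 upstream windows of 250 bases ran from 1 to 41 with a median of 14, and 15 held CGCGC or GCGCG (the same motif read on either strand, so that overlapping copies count once per window). RefSeq promoters of 300 bases were matched for 22 Hox genes (GRCm38.p6), and 9 of them (40.9%) held the motif, against 30.0% of all 27025 promoters, with a median of 13.5 CpGs against 7.

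Hox RNA was close to absent. RPKM, reads scaled to gene length and library depth, was listed at 0 in all 9 columns for Hoxa2, Hoxa11, Hoxb5 and Hoxc11, and 11 of the 39 genes were above 0 in all 9. In every column 34 of the 39 stayed below 0.1 RPKM and 22 stayed below 0.01 RPKM. With a class mean of at least 0.5 RPKM in any class, 1 Hox gene of 39 (2.56%) counted as transcribed, Hoxa7, against 40.9% of all genes and 0.991% of the 1110 Olfr genes, odorant receptors of the nose that serve as another silent family. The summed RPKM of the 39 genes was 1.02 and 1.63, 1.70 and 1.84, 2.36 and 2.42, and 2.67 and 2.77 in the 4 classes from small to large (libraries A and B), and 2.75 in GV oocytes. Without Hoxa7 the sum stayed between 0.858 and 1.28 RPKM in all 9 columns, so most of the rise of the sum was that of Hoxa7.

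Most of the RNA found came from the Hoxa and Hoxd clusters, mainly from Hoxa7, Hoxd9 and Hoxa13. Hoxb4 and Hoxc13 were above 0 in all 9 columns too, at lower levels. Summed over its genes the Hoxa cluster reached 0.382 to 2.18 RPKM over the 9 columns and the Hoxd cluster 0.452 to 0.717 RPKM. The Hoxb cluster gave 0.0326 to 0.110 RPKM and the Hoxc cluster 0.0244 to 0.0785 RPKM, and no gene of either reached 0.1 RPKM in any column. The 25 other genes of the table that lie inside the clusters were as silent: 16 were listed at 0 throughout and the highest value was 0.0192 RPKM, for Gm53.

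**Figure D1:**
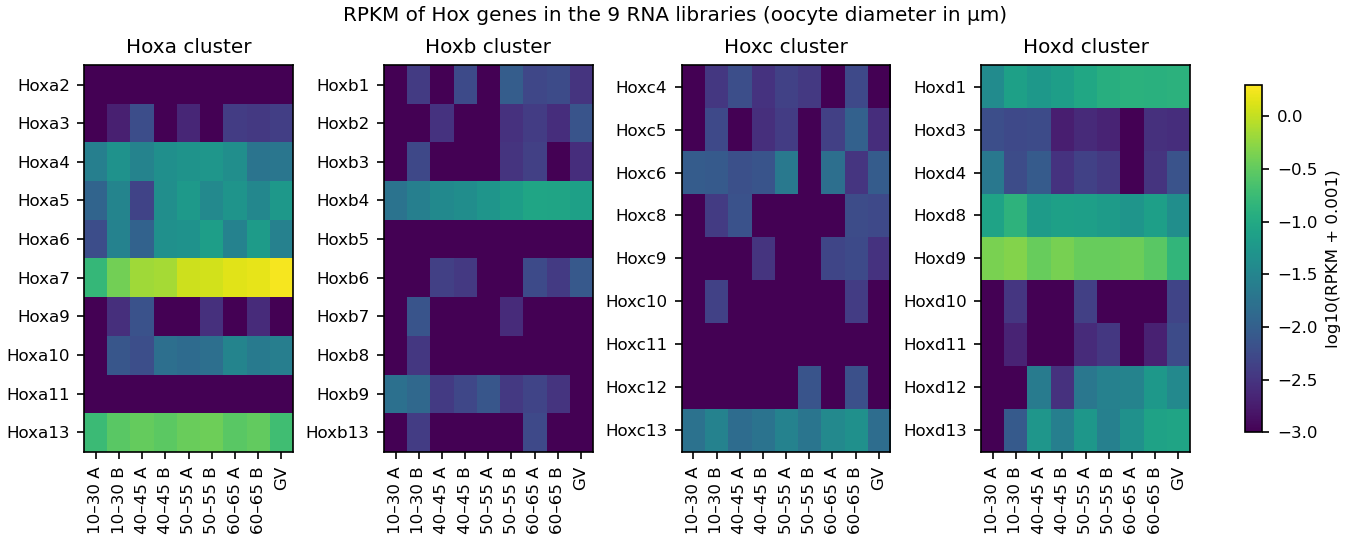
RPKM of Hox genes (rows, 1 panel per cluster, by gene number) in the 9 RNA-seq columns, shown by colour on a log10 scale on which lighter is higher. Hoxa7 is the lightest row and rises with oocyte size to 1.81 RPKM in GV oocytes, and all but 5 rows stay below 0.1 RPKM in every column.

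Hoxa7, a trunk-patterning gene of the middle of the Hoxa cluster (chr6:52214491-52221854, minus strand), was the exception. It measured 0.157 and 0.391, 0.671 and 0.719, 1.13 and 1.17, and 1.43 and 1.49 RPKM in the 4 classes, and 1.81 in GV oocytes. These values rest on 45 and 179, 290 and 395, 382 and 520, 433 and 776, and 1035 reads, recovered from the steps of the RPKM values. Both libraries of each class lay above both of the class before, with no overlap. Class means were 0.274 ± 0.165, 0.695 ± 0.0337, 1.15 ± 0.0284 and 1.46 ± 0.0422 RPKM (SD, n = 2), so the widest spread was at 10–30 μm, where library B read more than library A. Hoxa7 was also the only Hox gene among the 10518 genes that passed a filter of 0.5 RPKM in 2 of 8 libraries (GV left out), and it passed that limit through the classes from 40–45 μm upward. Tested with limma on log2(RPKM + 0.1), a scale that understates the change of low genes, it rose from 10–30 to 40–45 μm by 1.27 on the log2 scale (SE 0.24, Benjamini-Hochberg adjusted p = 0.00802, and 0.0266 with no filter), a contrast in which 16.5% of genes were called up and 7.73% down. From 10–30 to 60–65 μm it rose by 2.16 (SE 0.24, limma adjusted p = 0.000119, and 0.000818 with no filter), where 33.2% of genes were called up and 30.1% down. From 40–45 to 60–65 μm it rose by 0.89 (SE 0.24, limma adjusted p = 0.0207, and 0.0505 with no filter), where 17% were called up and 21.1% down, and this last call was lost when any of the 4 libraries compared was left out, with values of 0.84 to 0.92.

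In pooled oocytes a change in RNA per oocyte and a change in the share of oocytes that hold the RNA cannot be told apart. The 3′ end of Hoxa7 overlaps the antisense gene 2700086A05Rik, which was listed at or below 0.0132 RPKM in all 9 columns, and whether strand was used when the table was counted is not stated. Granulosa cell markers, from the cells that surround the oocyte, rose along with Hoxa7 from a summed 1.82 RPKM (10–30 μm A) to 7.01 (GV) over 6 genes, most of it Nr5a2, and limma called Nr5a2 and Inha up from 10–30 to 60–65 μm, although Inha passed the filter of 0.5 RPKM only through the larger oocytes. Class means at 10–30 and 60–65 μm were 0.0937 and 0.209 RPKM for Amh, 0.166 and 0.452 for Kitl and 0.0490 and 0.233 for Fshr, while Foxl2 stayed at or below 0.0642. In GV oocytes, where Hoxa7 was highest, Inha measured 0.168, Amh 0.0697 and Foxl2 0.020 RPKM, all below their 60–65 μm libraries, while Nr5a2 (5.56), Kitl (0.907) and Fshr (0.286 RPKM) were above theirs. Blood and endothelial markers rose from 0.629 to 5.76 RPKM over 5 genes, nearly all Pecam1, with Ptprc and Cdh5 below 0.02 RPKM. Their part in the Hoxa7 values was not tested. The 6 oocyte markers summed to between 1539 and 2052 RPKM in every column, though limma called Gdf9 and Bmp15 up and Figla, Dppa3 and Ddx4 down from 10–30 to 60–65 μm.

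The 4 next genes by level, Hoxd9, Hoxa13, Hoxd1 and Hoxd8, all stayed below 0.5 RPKM. Hoxd9, which patterns the trunk and limb, measured 0.433 and 0.487, 0.345 and 0.420, 0.339 and 0.338, and 0.362 and 0.284 RPKM in the 4 classes from small to large, and 0.146 in GV oocytes. It was highest in the smallest oocytes, and the 60–65 μm libraries overlapped those of both other larger classes. Theca and stroma markers (6 genes, mainly Col1a1 and Col3a1, with Cyp17a1 listed at 0 in both 10–30 μm libraries) were highest in the same libraries, at 3.13 and 2.30 RPKM at 10–30 μm, against 0.877 and 0.783 at 60–65 μm and 0.352 in GV oocytes, and their part in the Hoxd9 values was not tested. Hoxa13, a gene of the limb ends and the urogenital tract, measured 0.175 and 0.288, 0.334 and 0.294, 0.354 and 0.374, and 0.289 and 0.318 RPKM in the 4 classes, and 0.196 in GV oocytes. Its highest class was 50–55 μm, and its 60–65 μm libraries overlapped those of 40–45 μm.

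Hoxd1, the gene at the 3′ end of its cluster, measured 0.0378 and 0.0743, 0.0572 and 0.0702, 0.0913 and 0.115, and 0.128 and 0.125 RPKM in the 4 classes and 0.130 in GV oocytes. Both libraries of 50–55 μm and of 60–65 μm lay above the 4 of smaller oocytes. Hoxd8 measured 0.0807 and 0.135, 0.0631 and 0.0744, 0.0713 and 0.0637, and 0.0520 and 0.0725 RPKM in the 4 classes and 0.0423 in GV oocytes. It was highest at 10–30 μm, and from 40–45 μm on its classes overlapped.

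**Figure D2:**
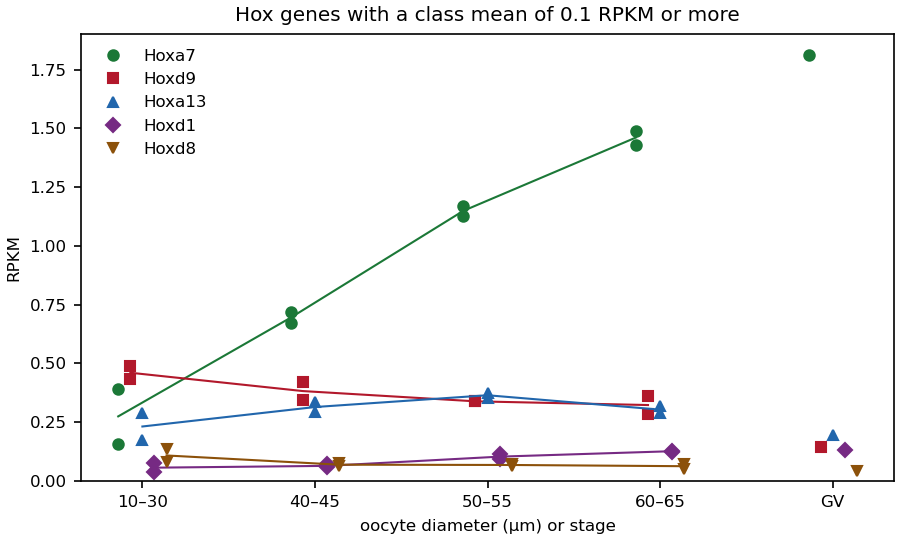
RPKM of Hoxa7, Hoxd9, Hoxa13, Hoxd1 and Hoxd8 by oocyte class. Points are single libraries on 1 linear axis, and lines join the class means of growing oocytes. Hoxa7 rises in every class up to 1.81 RPKM in GV oocytes, and Hoxd9 is highest at 10–30 μm with 0.433 and 0.487 RPKM.

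The other genes were too low for a test on RPKM, so the recovered reads of all 20046 genes above 0 were also tested with edgeR's quasi-likelihood test, an analysis added after the data had been seen. From 10–30 to 60–65 μm, 35 of the 39 Hox genes could be tested, 6 were called up and 1 down, beside 24.1% of all genes in each direction. The share of Hox genes called up was thus below the background, and nothing particular to them is read from it. In the same test 3 were called up from 10–30 to 40–45 μm (Hoxd13, Hoxd12 and Hoxa7, beside 11.8% of genes up and 9.43% down) and 3 from 40–45 to 60–65 μm (Hoxd12, Hoxa7 and Hoxb4, beside 15.7% up and 15.3% down). limma with no filter called 1, 3 and 8 Hox genes in the 3 contrasts (40–45 against 10–30, 60–65 against 40–45 and 60–65 against 10–30 μm), beside 7.72% up and 5.71% down, 12.9% up and 11.4% down, and 24.1% up and 22.3% down. With a filter of 0.1 RPKM, which Hoxd1 passed only through oocytes of 50–55 μm and more, it tested 4 Hox genes and called 1, 2 and 3, beside 14.7% up and 8.92% down, 18.2% up and 19.5% down, and 32.9% up and 30.6% down. Hoxa7 was called with a log2 change of 2.37 and an edgeR adjusted p of 4.31e-35, which was 7.97e-05 when 10 reads in 2 libraries were required. The same 7 genes were called under that limit, with larger p for the genes that rose. Fewer Hox genes met the limit, and the share of all genes called under it is not given here. Nothing particular to Hox genes is therefore read from this count. Hoxb4, a hindbrain and trunk gene, was called up by 1.94 on the log2 scale (edgeR adjusted p = 1.84e-06, and 0.000541 with 10 reads required), with 7 and 17, 22 and 32, 25 and 43, and 38 and 62 reads in the 4 classes, and 61 in GV oocytes. Its RPKM rose from 0.0170 and 0.0258 to 0.0871 and 0.0826, without overlap between classes.

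The posterior genes Hoxd13 and Hoxd12, which shape the digits and the end of the trunk, were called up on very few reads. Hoxd13 had 0 and 3, 20 and 12, 16 and 10, and 12 and 35 reads in the 4 classes, and 41 in GV oocytes (edgeR adjusted p = 9.95e-07, and 0.00371 with 10 reads required). Hoxd12 had 0 and 0, 9 and 1, 6 and 11, and 8 and 27 reads, and 18 in GV oocytes (edgeR adjusted p = 1.39e-06, and 0.00487 with 10 reads required). Hoxd12 was also called between 40–45 and 60–65 μm (edgeR adjusted p = 0.0181), with 0.0229 and 0.0020 RPKM against 0.0291 and 0.0570, but not when 10 reads in 2 libraries were required (edgeR adjusted p = 0.0806). The RPKM of Hoxd13 overlapped between these classes. Hoxa10, a uterine and limb gene, had 0 and 4, 3 and 11, 6 and 9, and 12 and 15 reads, and 19 in GV oocytes (edgeR adjusted p = 0.00414). Hoxd13, Hoxd12 and Hoxa10 met the limit of 10 reads in 2 libraries only through oocytes of 40–45 μm and more, where they were higher. Their p under that limit therefore adds no support for a rise from 10–30 μm. Hoxd1 was called up by 1.10 (edgeR adjusted p = 0.0147) and Hoxd9 down, having decreased by 0.52 (edgeR adjusted p = 0.0416). Hoxd8 and Hoxa13 missed the threshold, with edgeR adjusted p of 0.0512 and 0.185. No Hox gene that was called, other than Hoxa7, reached 0.5 RPKM in any class.

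The next question was what methylation such silent, CpG-rich genes carried in 60–65 μm oocytes, which are not yet fully grown. In the PBAT library, gene starts (1000 bases to each side of the listed start) could be measured for 35 of the 39 Hox genes, with at least 5 cytosines of 5 reads. Those of Hoxb2, Hoxb3, Hoxb4 and Hoxc4 could not. The 35 starts ran from 1.95 to 15% with a median of 4.21% and a mean of 4.80% (2.56% with 10 reads required per cytosine), and none reached 25%. Of 19669 starts of all genes the median was 3.87% and 6.00% reached 25%. The Hox median was thus slightly above that of all starts, and with 35 starts and a background of 6.00% nothing particular to Hox genes is read from the absence of starts at 25%. Among 3038 starts of other genes below 0.1 RPKM at 60–65 μm with at least 30 CpGs per kb, the median was 3.30% and 1.58% reached 25%, and the 30 measured Hox starts with at least 30 CpGs per kb had a median of 3.70%.

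Among the 5 lowest Hox starts were those of Hoxd8 (2.16%, 16 of 799 calls), Hoxa13 (2.33%, 23 of 1096), Hoxc13 (2.69%, 14 of 617) and Hoxd9 (2.70%, 30 of 1086). The highest were those of Hoxb8 (15%, 6 of 46 calls), Hoxd4 (9.24%, 6 of 66), Hoxb6 (8.18%, 5 of 61), Hoxa6 (7.95%, 12 of 173) and Hoxc8 (6.71%, 17 of 244). These high values rest on few calls, and the 95% Wilson interval of the pooled calls was 6.12 to 25.7% for Hoxb8 and 1.24 to 3.23% for Hoxd8. The 4 highest starts held 11.5 to 32.5 CpGs per kb, below the Hox median of 39.5. Such intervals cover counting error only, since 1 library has no replicate. The order changed with the position taken as the start. At the main transcript start, measurable for 38 genes (median 3.46%), Hoxb3 was highest at 18.3% (40 of 215 calls over 34 cytosines, Wilson interval 13.97 to 24.3%), Hoxb6 stood at 3.11% (20 of 640 calls), and Hoxa6 had 0 methylated of 165 calls. None of the 38 reached 25%.

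Gene bodies separated the Hox genes from other genes more than starts did. All 39 Hox bodies could be measured, on 156 to 5181 calls each, and they ran from 0 to 8.21% with a median of 3.91%, so that all 39 lay below 10% and none reached 25%. Of 22170 bodies of all genes the median was 15.2%, 36.5% reached 25% and 39.3% lay below 10%. Bodies of 9706 other genes with at least 0.5 RPKM at 60–65 μm had a median of 30.6%, and 61.0% of them reached 25%. Bodies of 10038 other genes below 0.1 RPKM had a median of 7.50%, those of 895 other genes below 0.1 RPKM with at least 30 CpGs per kb a median of 3.96%, and those of 250 Olfr genes a median of 9.48%. Hox bodies therefore sat with the silent, CpG-rich bodies of the rest of the genome, of which 4.69% reached 25%. Transcribed bodies of that CpG density were low too. Over 667 other genes with at least 0.5 RPKM and at least 30 CpGs per kb the median was 5.84%, with 67.9% below 10% and 10.8% at 25% or more. These sets share 1 library and are given as descriptions.

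Among the 5 lowest Hox bodies were Hoxd8 (0.794%, 10 of 1144 calls), Hoxb4 (6 of 497 calls), Hoxb5 (1.45%, 11 of 648) and Hoxc13 (1.87%, 17 of 939). The highest were Hoxa6 (8.21%, 57 of 642), Hoxb3 (7.92%, 116 of 1618), Hoxc5 (7.48%, 43 of 605), Hoxa9 (7.12%, 81 of 1284) and Hoxc6 (7.11%, 36 of 504). Hoxa7, the only Hox gene above 0.5 RPKM, did not stand out: its body was at 5.02% (65 of 1360 calls over 175 cytosines) and its start at 4.65% (22 of 487). Other genes of 0.5 to 2 RPKM, its range of level, had a median body methylation of 31.1% over 3181 genes, but those among them with at least 30 CpGs per kb had 5.59% over 197 genes, of which 13.2% reached 25%. The Hoxa7 body, with 35.2 CpGs per kb, was close to the median of this last set.

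**Figure D3:**
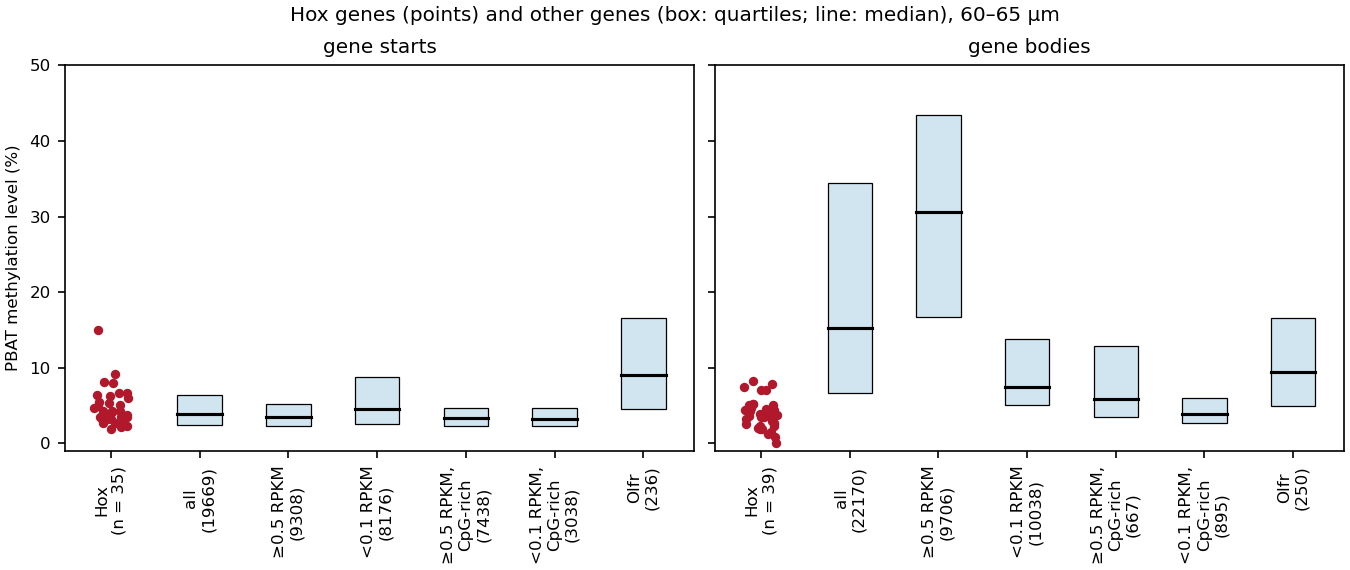
PBAT methylation at 60–65 μm, in percent, of gene starts and gene bodies for Hox genes and for sets of other genes by RPKM and CpG density. Boxes give the quartiles with a line at the median, points are single Hox genes, and the axis ends at 50%. All 39 Hox bodies lie below 10%, while bodies of genes with at least 0.5 RPKM have a median of 30.6%, and the CpG-rich ones among them 5.84%.

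RRBS followed the Hox genes through growth, with 24 starts and 37 bodies measurable in all 6 libraries. The mean over the 24 starts was 0.750 and 0.579%, 0.668 and 1.11%, and 0.843 and 0.865% in the classes of growing size. Class means were 0.664 ± 0.121, 0.888 ± 0.311 and 0.854 ± 0.0157% (SD, n = 2). None of the 24 starts reached 5% in any library, beside 72 to 563 of all 12008 starts in single libraries. Nothing particular to Hox genes is read from this. The mean over all 12008 starts went from 0.860% at 40–45 μm to 1.45% at 60–65 μm. For the 37 bodies the class means were 0.851 ± 0.312, 1.03 ± 0.374 and 0.898 ± 0.246% (SD, n = 2), so the differences between classes were smaller than the spread within them. Bodies of all 13870 genes rose meanwhile from 1.67 to 5.46 and 8.13%. An exact permutation test of 2 libraries against 2 cannot give a two-sided p below 0.333, so no test of these means was made.

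Single Hox bodies passed 5% in 2 libraries only, while 543 to 5289 of all 13870 bodies reached it in single libraries. Hoxb13, the last gene of the Hoxb cluster towards the tail, stood at 5.26% in 40–45 μm library B, and 2 bodies did so in 50–55 μm library B, the library with the fewest cytosines, where Hoxb4 was highest at 5.85%. Hoxa7, whose listed start was not measurable throughout, read in its body 3.15 and 0%, 0.737 and 0%, and 0.608 and 0% in the 3 classes. All 3 B libraries stood at 0. The A libraries held 12 of 1161, 15 of 1708 and 9 of 1107 methylated calls, so the 3.15% came from averaging over cytosines. No trend with size is read from these values (60–65 against 40–45 μm: 0.031 in log2 odds, edgeR adjusted p = 0.994). The main transcript start of Hoxa7 read 0.393 and 0%, 0.993 and 0%, and 0.689 and 0%.

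Methylated and unmethylated calls of each region were tested over all genes with edgeR's quasi-likelihood test, 60–65 against 40–45 μm. Of 24 Hox starts tested 0 were called, with 1 at an unadjusted p below 0.05, while 0.718% of all 11984 starts tested were called up and 0% down. Of 37 Hox bodies 0 were called, again with 1 at an unadjusted p below 0.05, while 33% of all 13862 bodies tested were called up and 0.0577% down. limma on the log ratios of calls called 0 Hox starts and 0 Hox bodies too. Of all regions it called 1.55% of starts up and 0.0167% down, and 34.8% of bodies up and 0.0361% down. The median change of the Hox bodies was 0.29 in log2 odds, against 1.32 for all bodies tested, but its sign rested on single libraries: it was -0.13 without 40–45 μm library B, -0.15 without 60–65 μm library A, 0.52 without 40–45 μm library A and 0.66 without 60–65 μm library B, while that of all bodies stayed between 1.13 and 1.99. The 1 region below 0.05 was in both cases Hoxd10, a limb and spinal cord gene. Its body read 0.0667 and 0%, 0.748 and 0.275%, and 0.645 and 4.01% in the 3 classes (edgeR adjusted p = 0.0947). The 4.01% was a mean over cytosines in 60–65 μm library B. In calls, which were what was tested, 60–65 μm held 8 methylated of 1210 in A and 13 of 1290 in B. At 40–45 μm it was 3 of 1267 and 0 of 1807. Without 40–45 μm library A the body and start of Hoxd10 were called, with edgeR adjusted p of 0.0293 and 0.0259, but that fit has 1 library at 40–45 μm, in which Hoxd10 read 0%, and assumes that it varies like the other classes.

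Taken as whole stretches of DNA, with the sequence between the genes included, the 4 clusters stayed near 1% in RRBS. The Hoxa cluster read 1.10 and 0.565, 0.762 and 1.51, and 0.736 and 0.659% in the 3 classes. The Hoxb cluster read 0.818 and 0.946, 1.01 and 1.73, and 1.35 and 0.723%. The Hoxc cluster read 1.24 and 0.543, 0.722 and 1.30, and 0.991 and 0.960%. In all 3 the highest library was 50–55 μm B and the 60–65 μm values lay within the range of the smaller classes or, for Hoxb, overlapped those of 50–55 μm. The Hoxd cluster read 1.22 and 0.638, 0.748 and 2.16, and 1.10 and 0.831%, with the same library highest.

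Flanks of 200 kb did not all stay low. Above Hoxa, on the side of Hoxa13 and Evx1, RRBS read 1.03 and 0.766, 6.44 and 9.46, and 10.1 and 10.5% in the 3 classes. Above Hoxb, on the side of Hoxb1 and Skap1, it read 2.36 and 0.942, 8.41 and 6.22, and 16.1 and 15.8%. Below Hoxc, on the side of Hoxc13, it read 0.574 and 1.14, 3.18 and 3.81, and 7.63 and 5.71%. In these 3 flanks both libraries of each class lay above both of the class before, while the adjoining cluster showed no such order. The other 5 flanks read between 0.325 and 1.5% in both 60–65 μm libraries, and 3.04 to 7.34% in 50–55 μm library B. Flanks held 15 to 346 cytosines a library, in each library fewer than the cluster they adjoin, which held 336 to 817.

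**Figure D4:**
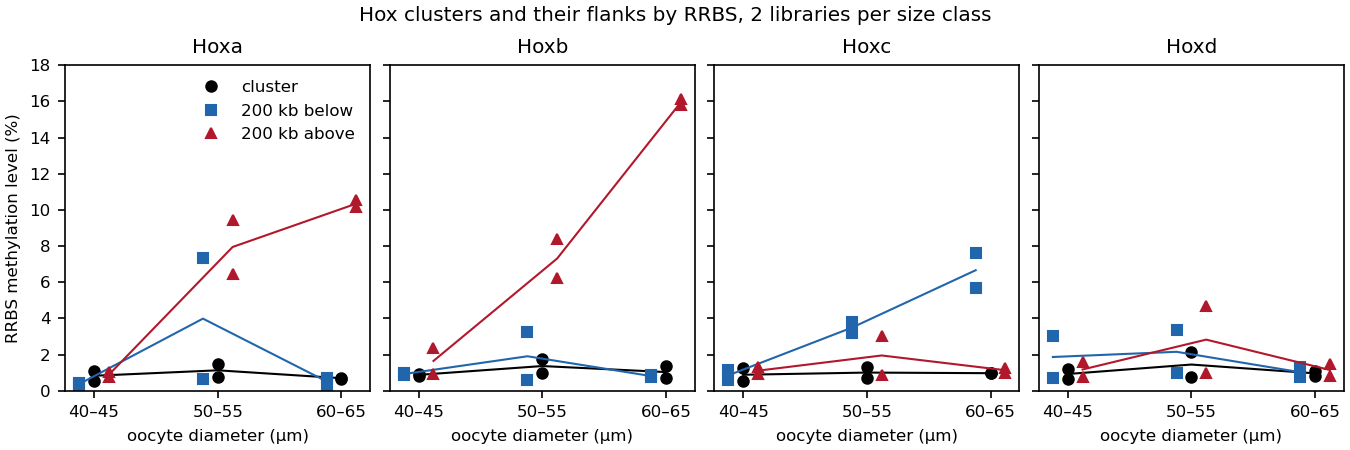
RRBS methylation, in percent, of the 4 Hox clusters and of the 200 kb below and above each, for both libraries of the 3 classes. Points are libraries and lines join class means. The clusters stay below 2.2% throughout, while the flank above Hoxb reaches 16.1 and 15.8%.

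PBAT at 60–65 μm gave 4.49% over 1914 cytosines of the Hoxa cluster, 5.28% over 1539 of Hoxb, 4.31% over 1054 of Hoxc and 4.0% over 1765 of Hoxd. With 10 reads required per cytosine the Hoxc value was 2.03%. The flanks gave 19.0% below and 22.2% above Hoxa, 9.41 and 29.6% for Hoxb, 22.3 and 9.30% for Hoxc and 10.2 and 9.59% for Hoxd. All 8 flanks thus exceeded their cluster in this library. The PBAT values of the clusters were above those of RRBS also at the same cytosines: over 249 shared ones in Hoxa PBAT gave 5.67% and the RRBS libraries of 60–65 μm 0.648 and 0.618%. For Hoxd, with 299 shared cytosines, PBAT gave 3.36% and RRBS 0.773 and 0.663%. The cause of this offset between the methods was not tested, and levels are compared here only within a method.

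In windows of 2 kb the low level held nearly from end to end. With 5 cytosines of 5 reads, 41 of 53 windows could be measured in Hoxa, 59 of 87 in Hoxb, 42 of 58 in Hoxc and 36 of 49 in Hoxd, with medians of 4.02, 3.84, 4.56 and 4.55%. No window of Hoxa, Hoxc or Hoxd reached 25%, the highest being 20.6, 10.5 and 18.8%. In Hoxb 2 of 59 windows (3.39%) did. Outside, 16 of 43 windows above Hoxa (37.2%), 22 of 55 above Hoxb (40.0%) and 11 of 33 below Hoxc (33.3%) reached 25%. In the other 5 flanks the share was lower, at 20.7% below Hoxa, 14.5% below Hoxb, 10.3% above Hoxc, 17.4% below Hoxd and 9.52% (2 of 21 windows) above Hoxd.

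The 2 methylated windows of Hoxb adjoined each other at chr11:96218316-96220315, with 59.4% over 13 cytosines (55 of 91 calls, 95% Wilson interval 50.2 to 69.9%), and at chr11:96220316-96222315, with 69.7% over 6 (39 of 54 calls, 59.1 to 82.4%). They lay in the long gap between Hoxb13 and Hoxb9, in no annotated gene, were 60.4 and 60.7% repeat-masked and held 13 and 8 CpGs per kb. RRBS had no usable cytosine there.

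**Figure D5:**
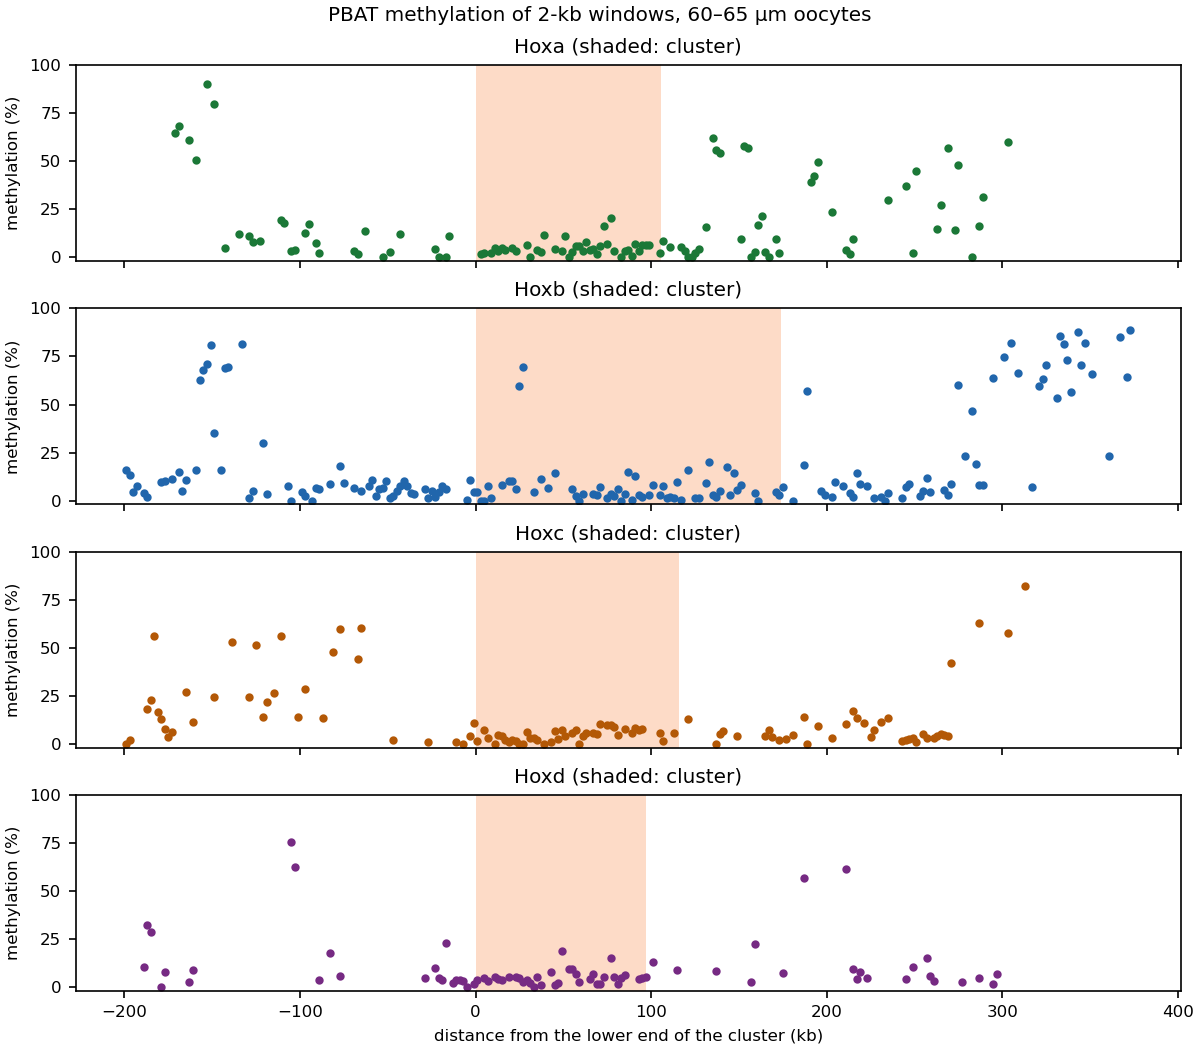
PBAT methylation at 60–65 μm, in percent, of 2-kb windows through each Hox cluster and 200 kb to each side, plotted by distance in kb from the cluster's lower end. Points are windows with at least 5 cytosines, and the shaded part is the cluster. Inside the clusters only 2 windows, both in Hoxb, reach 25%.

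Going outward, the first window of at least 25% lay 148 kb below Hoxa, in the body of Skap2, and 28.5 kb above it in no annotated gene. For Hoxb it lay 120 kb below, in Atp5g1, and 14.1 kb above in no annotated gene. For Hoxc it lay 64.0 kb below in no annotated gene and 154 kb above in Cbx5, and for Hoxd 102 kb below in Lnp and 89.2 kb above in Mtx2. The low DNA thus ran past the outermost Hox genes on every side, though windows without enough cytosines could not be scored. The nearest gene beyond Hoxa13 with at least 0.5 RPKM was Evx1, a homeobox gene related to the Hox genes and 52.6 kb away. Evx1 measured 2.44 and 4.0, 4.63 and 5.48, 6.10 and 7.05, and 7.83 and 7.28 RPKM in the 4 classes, and 5.86 in GV oocytes (60–65 against 10–30 μm: log2 1.28, SE 0.19, limma adjusted p = 0.000553). Its body went from a class mean of 0.681 to 1.73 and 3.02% in RRBS and was called up (edgeR adjusted p = 0.00215), and it stood at 13.4% in PBAT. Evx2, its relative beside Hoxd13, stayed at or below 0.00449 RPKM with a body at 2.86% in PBAT. Of the 8 nearest genes of at least 0.5 RPKM, 1 on each side of each cluster, 7 bodies could be tested and 3 were called up, Evx1, Skap1 and Skap2, beside the 33% of all bodies. Beyond Hoxb1, Skap1 at 3.67 RPKM went from 3.34 to 42.0% in RRBS (edgeR adjusted p = 0.000112), and below the Hoxa cluster, Skap2 at 9.35 RPKM went from 0.500 to 15.5% (edgeR adjusted p = 0.000687).

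Depth differed between libraries. The RNA table stands for 24092869 (10–30 μm A) to 55738075 (GV) reads, the RRBS libraries for 30000113 to 57319823 calls and PBAT for 99039028, at a median of 2 calls a cytosine for PBAT and 5 to 20 for RRBS. Over all cytosines with at least 5 reads the RRBS means were 2.50 and 2.53, 4.72 and 7.05, and 7.51 and 8.24% and that of PBAT 22.2%. Counting every cytosine with 1 read, 50–55 μm library A stood apart at 26.8%.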

How the data were processed

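Mouse oocytes sorted by diameter were measured in 16 libraries: 9 by RNA-seq, 6 by RRBS and 1 by PBAT. Per the submitters' processing notes, reads were trimmed with Trim Galore (0.2.8 and 0.3.5) and aligned to GRCm38 with TopHat2 2.0.9 (RNA) or Bismark (0.10.0 and 0.14.0, bisulphite). Per the study's methods the PBAT reads were deduplicated. The authors deposited RPKM values per gene for the RNA libraries. The study's methods name strand-specific libraries, Cufflinks for expression and SeqMonk for RNA-seq analysis. Which tool made the RPKM table, and whether strand was used in it, is not given in the sources used here. For methylation the authors deposited, per CpG cytosine and strand, the percent of methylated calls with the counts of methylated and unmethylated calls. The RPKM values below 2 fitted whole steps for all 12624 such genes, and reads were recovered for 20046 of 20052 genes above 0. Recovered reads are the smallest whole numbers that fit the ratios between libraries. A gene above 0 in 1 library always fits and is given 1 read, so reads of sparse genes are lowest possible counts.

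The members, gene lists and comparisons were chosen with earlier results of these data known. Regions needed 5 cytosines of at least 5 reads and were given the mean over cytosines. RNA was tested with limma 3.58.1 (trended variance, trimmed-mean scaling, log2(RPKM + 0.1), at least 0.5 RPKM in 2 of 8 libraries, Benjamini-Hochberg threshold 0.05, 1 mean per class, GV left out) and calls per region with edgeR 4.0.16 (quasi-likelihood, 6 RRBS libraries, regions without a methylated or an unmethylated call left out), in R 4.3.3; Python 3.11.15 with pandas 2.3.3 did the rest. Genes were named by a rule: Hox genes of at least 0.5 RPKM in a class and otherwise the 5 highest in RNA, the 5 highest and 5 lowest starts and bodies in PBAT (1 gene is not reported by name here), windows of at least 25%, fixed lists of cofactors, relatives and regulators, and the nearest gene of at least 0.5 RPKM on each side; Hoxb4, Hoxd12, Hoxd13, Hoxa10 and Hoxd10 were named after their values were seen. Replicates A and B are not stated to come from separate animals, so p-values measure the spread between these libraries. On simulated data for 60–65 against 10–30 μm the RNA test over 10518 genes called 94 of 100 genes raised by 1 and 97 of 100 raised by 2 on the log2 scale. For 60–65 against 40–45 μm the methylation test called 82 of 100 starts and 61 of 100 bodies raised by 10 percentage points, and 99 and 79 of 100 raised by 20. Alternatives were the scaling, pseudocount, filter, coverage, region size, pooled calls, tool, replicate block and leaving out each replicate.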

Additional observations from a re-analysis of the deposited data

How the results depend on the processing

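Over 227 alternatives to 29 results, 178 were scored as unchanged. For RRBS means this meant a move below the replicate SD, and for PBAT means a move within the reach of the Wilson interval. Counts had to stay close, and the Hoxa7 call had to hold. Leaving out 1 of 2 RRBS libraries always moves a mean by less than that SD, so those cases could not count as moved. A reversal could be scored only for the log2 changes of Hoxa7, and none was seen. The median change of Hox regions in RRBS is not among the 29 results, and it did change sign. For starts it was 0.17 in log2 odds, from -0.37 to 0.69 with a replicate left out and -0.10 with 1 read. For bodies it was 0.29, from -0.15 to 0.66. The number of Hox genes called in RNA (1 in each contrast) depended on the filter. For 40–45 against 10–30 μm it was 3 by edgeR on recovered reads and 2 with 10 reads required (without Hoxd12, adjusted p = 0.117). For 60–65 against 40–45 μm it was 3 with no filter, 2 with a filter of 0.1 RPKM and 3 by edgeR with or without the 10-read limit (which lost Hoxd12, adjusted p = 0.0806, and gained Hoxc13, 0.0483), and 0 to 1 when a replicate was left out. For 60–65 against 10–30 μm it was 8 with no filter, 3 with 0.1 RPKM and 7 by both edgeR runs. The share of all genes called under the 10-read limit is not given here, so its counts are not read as particular to Hox genes. With no filter Hoxa7 itself missed the threshold from 40–45 to 60–65 μm. At a level of 0.1 RPKM, 5 Hox genes counted as transcribed. Without scaling, calls over all genes from 10–30 to 40–45 μm turned from 1735 up and 813 down to 1088 up and 1521 down, as the median of all genes moved from 0.06 to -0.07, and Hoxa7 stayed called.

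In RRBS the means of Hox starts were 1.01, 1.28 and 0.785% with 1 read, so that 60–65 μm then lay below 40–45 μm, and at 60–65 μm 0.744% with 10 reads, 0.729% with pooled calls, 0.748% with a narrower window and 0.883% at the main transcript start. In PBAT they were 2.56% with 10 reads, 3.55% pooled and 4.44% with a narrower window (4.80% as reported). Clusters with 1 read gave 1.99 and 0.999% (Hoxa, 50–55 and 60–65 μm), 1.45 and 2.88% (Hoxb, 40–45 and 50–55 μm), 2.12 and 1.14% (Hoxc, 50–55 and 60–65 μm) and 1.41% (Hoxd, 60–65 μm) in RRBS, and 4.99, 5.99, 5.22 and 4.57% in PBAT. With 10 reads PBAT gave 3.94, 4.17, 2.03 and 2.88%, and Hoxc at 60–65 μm gave 0.897% in RRBS and 1.01% pooled. All RRBS means stayed between 0.543 and 2.88% and all PBAT means between 2.03 and 5.99%. The causes were not tested. Leaving out a replicate gave 0 to 1 Hox starts and 0 to 1 Hox bodies called. No Hox region passed a filter of 5% mean methylation, so that setting gives no value. The letters A and B are not said to mark a shared animal or day, and deviations of same-letter libraries correlated at -0.23 to 0.67 in RNA and at most 0.031 in RRBS. With a replicate block 1 Hox gene was called in each RNA contrast and 0 starts and 0 bodies in RRBS, and no Hox call changed. Of all regions that block called 0.668% of starts and 31% of bodies up.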

Other observations

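Other homeobox genes and the regulators of Hox genes gave a mixed picture. Of the 9 TALE cofactors, homeodomain proteins that bind DNA together with Hox proteins, 3 passed the filter of 0.5 RPKM, and from 10–30 to 60–65 μm limma called 2 up and 0 down (beside 33.2% of genes up and 30.1% down). Meis2 went from 2.30 and 2.44 RPKM to 8.26 and 7.97 (log2 1.77, limma adjusted p = 1.54e-05) and Pbx2 from 4.33 and 4.76 to 5.80 and 5.87 (log2 0.39, limma adjusted p = 0.00486). Pknox1 measured 1.64 and 1.93 RPKM at 10–30 μm and 1.59 and 1.73 at 60–65 μm (limma adjusted p = 0.652). In RRBS 2 of the 8 TALE bodies tested were called up by edgeR, beside 33% of all bodies. These were Pbx4, from 1.07 to 23.2% (edgeR adjusted p = 0.00329), and Pknox1, from 0.716 to 5.35% (edgeR adjusted p = 0.00353). The Meis2 body, transcribed at the highest level of the list, stood at 0.952% at 60–65 μm in RRBS and 6.31% in PBAT.

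Of the 6 ParaHox and Cdx genes, relatives of the Hox genes outside the clusters, Pdx1, a pancreas regulator, was the only one to pass the filter. It measured 0.767 and 0.819 RPKM at 10–30 μm and 1.29 and 1.26 at 60–65 μm (log2 0.65, limma adjusted p = 0.00061). All 6 bodies could be tested in RRBS and edgeR called 0 (beside 33% of all bodies up), with an adjusted p of 0.051 for the lowest, Cdx1, and their PBAT bodies ran from 1.14 to 8.46%. Of 11 chromatin regulators of Hox genes, 10 were in the table (Kmt2a was not listed under that symbol) and 9 passed the filter. From 10–30 to 60–65 μm limma called 5 up and 0 down (beside 33.2% and 30.1% of genes): Rnf2, Bmi1, Ezh2, Suz12 and Men1. Ezh2, the Polycomb methyltransferase, went from 5.26 and 5.88 to 9.66 and 9.20 RPKM (log2 0.79, limma adjusted p = 0.000153) and Bmi1 from 16.6 and 16.9 to 28.5 and 30.8 RPKM (log2 0.85, limma adjusted p = 0.000266). Pcgf2 stayed at or below 0.0342 RPKM.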
